A study of Mus musculus with 5 samples.

Results

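Enamel matrix genes code for the secreted proteins and proteases with which ameloblasts, the epithelial cells of the tooth, build enamel. The presence of H3K27me3 at 7 of these genes (Ambn, Enam, Amtn, Amelx, Odam, Klk4 and Mmp20) was examined in molar mesenchyme, a tissue from which the enamel-forming epithelium had been removed. The 7 genes were among 21938 protein-coding genes of the GENCODE M21 annotation on the mouse build GRCm38, and each locus comprised the gene and 5 kb of flank at both ends. The rule that chose them names genes of enamel formation and uses no measured value, although it was set with earlier results of these data known. Expression data are not used here, so whether the genes were silent in the tissue collected, and whether any epithelium remained in it, was not checked.

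Molars were taken from untreated wildtype C57BL/6 mice at postnatal day 3 and used for ChIP-seq, in which the DNA bound to an immunoprecipitated protein is sequenced. Of the 5 libraries, 2 were made with an antibody to H3K27me3, 2 from the input (chromatin set aside before precipitation) and 1 with IgG as negative control. Broad peaks of H3K27me3 had been called in 3 pairings, namely replicate 1 against its input, replicate 1 against IgG, and replicate 2 against its own input. The labels did not state whether the libraries came from separate animals or pools, so an SD given below is the spread between 2 libraries. Their tags differed in length (49 bp in replicate 1, 74 bp in replicate 2), so means and SDs of covered share combine unlike peak lengths. Replicate 2 was the deeper library, with 49947919 tags kept compared with 30369351 in replicate 1, and its input held 51681224 tags compared with 23688420 for input 1 and 24440452 for IgG. The lists held 22757 peaks for replicate 1 against input, 24881 for replicate 1 against IgG and 33370 for replicate 2 on the nuclear chromosomes. Most peaks were short and weak, with a median length of 119 bp in replicate 1 against input and 181 bp in replicate 2, and a median pileup, the mean number of overlapping tags in the peak, of 3.19 and 6.16 tags.

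H3K27me3 is the trimethylated form of lysine 27 of histone H3 and is placed by Polycomb repressive complex 2, whose catalytic subunit is Ezh2 or Ezh1. In mammals it lies mostly at CpG-rich promoters of developmental regulators, of which the Hox genes are the best known. Genes with CpG-poor promoters that are used by a single differentiated cell type are often inactive elsewhere without this mark. Amelx (amelogenin), Ambn (ameloblastin) and Enam (enamelin) code for the structural proteins of the forming enamel matrix, Mmp20 (enamelysin) and Klk4 for the proteases that cleave and remove them, and Amtn (amelotin) and Odam for proteins of the maturation stage. Ambn, Enam, Amtn and Odam belong to the secretory calcium-binding phosphoprotein (SCPP) family, whose genes lie together on chromosome 5, and Amelx is a relative on the X chromosome.

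The 4 peaks found at these genes all came from replicate 2, and their reference sequences (GRCm38.p6, plus strand) are shown because the results below turn on where these bases lie within the genes. The first lay at chr5:88463291-88463421 in Ambn, the second at chr5:88467510-88467876 in Ambn, the third at chr5:87883947-87884017 upstream of Odam and the fourth at chr9:7651389-7651554 in Mmp20. Of the second, which was 367 bp long, the first 300 bases (chr5:88467510-88467809) are printed. Each CpG is in capitals.
Ambn exon 6 peak: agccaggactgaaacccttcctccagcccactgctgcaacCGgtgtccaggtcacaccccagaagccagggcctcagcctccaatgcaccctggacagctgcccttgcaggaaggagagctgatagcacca
Ambn exon 11 peak: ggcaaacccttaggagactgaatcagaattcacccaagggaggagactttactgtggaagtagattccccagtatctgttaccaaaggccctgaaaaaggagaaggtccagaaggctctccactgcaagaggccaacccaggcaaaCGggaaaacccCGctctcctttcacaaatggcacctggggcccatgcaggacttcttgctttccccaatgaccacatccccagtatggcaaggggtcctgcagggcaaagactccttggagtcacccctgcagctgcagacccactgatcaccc
Odam upstream peak: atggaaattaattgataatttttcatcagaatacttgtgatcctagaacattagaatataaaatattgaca
Mmp20 intron 6 peak: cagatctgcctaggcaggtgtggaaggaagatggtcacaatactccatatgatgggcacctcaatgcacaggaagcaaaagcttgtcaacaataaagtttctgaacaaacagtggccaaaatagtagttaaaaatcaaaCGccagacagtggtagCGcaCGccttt
The whole of each peak occurred as 1 exact copy in the reference genome. Repeat-masked bases made up 0% of both Ambn peaks, 31.0% of the Odam peak and 12.7% of the Mmp20 peak. CpG dinucleotides were few, with 1 in the Ambn exon 6 peak, 2 in the Ambn exon 11 peak, 0 at Odam and 3 at Mmp20.

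In replicate 1 no member had a peak. The count was 0 of 7 genes against input and 0 of 7 against IgG, whereas 25.0% of all protein-coding genes had a peak under the same rule against input and 25.9% against IgG. With 7 genes the precision was low, and the 95% Wilson interval of 0 of 7 reached 35.4%, above both background values. In replicate 2 a peak was found at 3 of 7 members (42.9%, 95% Wilson interval 15.8% to 75.0%), compared with 35.7% of all genes. No member had a peak in both replicates against input, compared with 15.7% of all genes. In each replicate the members' interval thus included the share of all genes. A gene without a peak has no value in these lists, since the weakest peaks listed had a pileup of 3.12 tags (replicate 1, input), 3.22 tags (replicate 1, IgG) and 6.00 tags (replicate 2), and signal under those levels is not shown. The fragment lengths modelled in peak calling, 46 bp in replicate 1 and 71 bp in replicate 2, were shorter than the sequenced tags of 49 and 74 bp, and whether peaks were missed or split for this reason was not tested.

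Counted over the 182 kb of the 7 loci together, replicate 1 gave 0 peaks in both pairings, with an exact 95% Poisson interval of up to 20.3 peaks per Mb. Replicate 2 gave 4 peaks, or 22.0 peaks per Mb (95% interval 5.99 to 56.3). Over all protein-coding loci the rate was 10.3 peaks per Mb (replicate 1, input), 11.4 (replicate 1, IgG) and 13.9 (replicate 2), so each of the members' intervals included the rate of all genes. Peaks covered 735 bp, or 0.404%, of the member loci in replicate 2, compared with 0.273% of all gene loci. Averaged over both replicates against input, 0.202% ± 0.285 (SD, n = 2) of the member loci was covered. With replicate 1 at 0%, an SD of 2 values always exceeds the mean, here and for Ambn, Odam and Mmp20 below. The Poisson intervals cover counting error only.

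**Figure D1:**
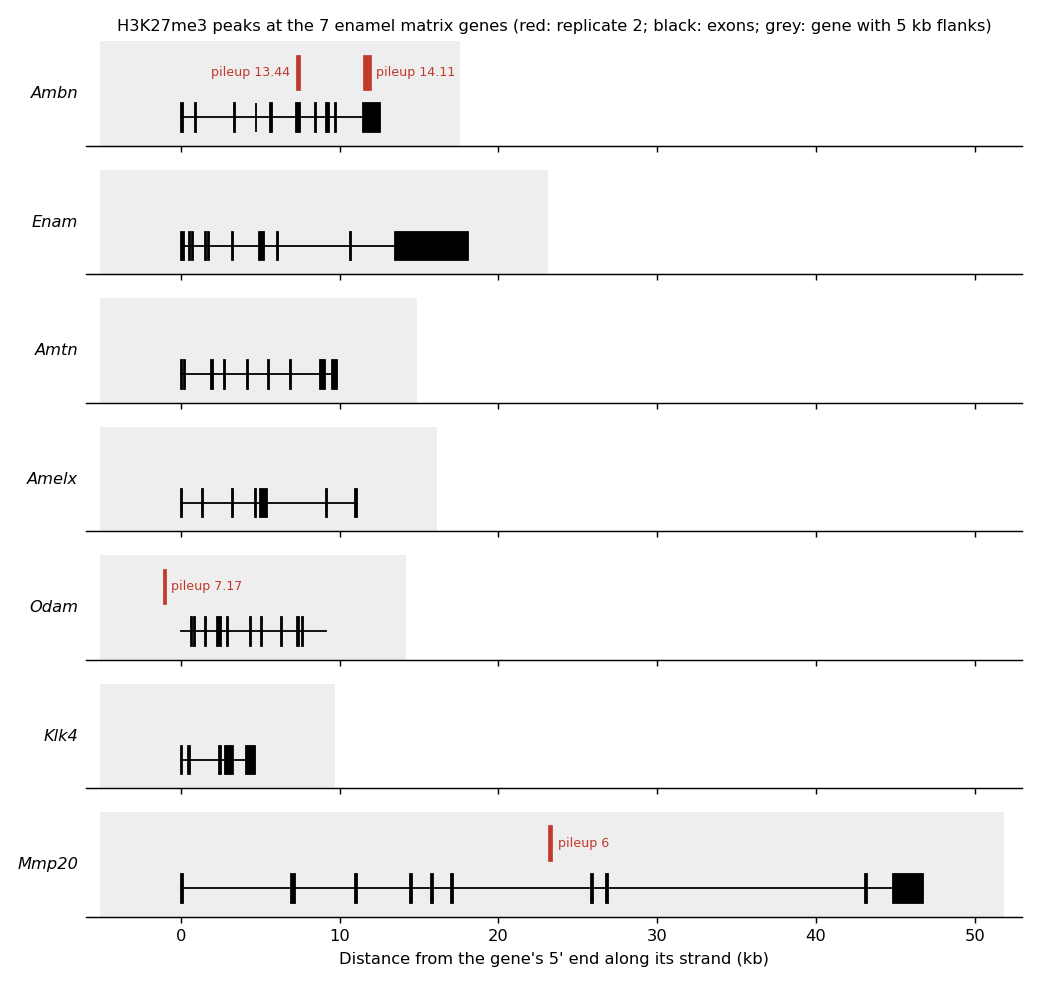
Exons (black) and H3K27me3 peaks (red, replicate 2) of the 7 genes, drawn along each gene's strand as distance from its 5′ end in kb, with the examined locus in grey and the mean pileup in tags beside each peak. Replicate 1 had no peak to draw against either control, and the 2 Ambn peaks sit on exon 6 and exon 11. The exons drawn are those of a single transcript per gene, for Ambn that is Ambn-201.

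Ambn, on the plus strand of chr5:88455991-88468531, carried the strongest signal among the members. It had 0 peaks in replicate 1 with either control (input or IgG) and 2 in replicate 2. The peaks of replicate 2 covered 2.21% of its 22.5 kb locus and 3.97% of the gene body. This covered share was above that of 97.6% of all genes in replicate 2, and the mean of both replicates was 1.10% ± 1.56 (SD, n = 2). Ambn thus had calls in replicate 2 alone, and a missing call in the shallower replicate 1 does not show that signal was absent. The share in replicate 2 was reached or passed by 520 genes.

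Both Ambn peaks lay wholly inside coding exons. The first covered 67.2% of exon 6 (chr5:88463272-88463466, 195 bp, transcript Ambn-201), starting 7300 bp downstream of the 5′ end of the gene. It had a pileup of 13.4 tags, a fold enrichment of 3.15 and a −log10 p of 4.94. The second covered 34.0% of exon 11 (chr5:88467452-88468531, 1080 bp), the last exon, within its coding part and 11519 bp from the 5′ end. Its pileup was 14.1 tags, its fold enrichment 2.76 and its −log10 p 4.23. Exons 11 and 6 were the longest and second longest of the 11 exons of Ambn-201, and no peak lay in the introns or in the other exons. Among the 33370 peaks of replicate 2, the exon 6 peak ranked 27 by p-value and 104 by pileup, and the exon 11 peak ranked 110 and 98.

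The background implied for these peaks was high as well. Fold enrichment was the ratio of pileup to background with 1 added to each, so an approximate background for each peak follows from both values. It came to 3.58 tags at the exon 6 peak and 4.47 tags at the exon 11 peak, whereas the median over replicate 2 peaks was 1.91 tags. A background as high was present at 0.402% and 0.333% of replicate 2 peaks. By fold enrichment the peaks ranked 167 and 2348, lower than by pileup. What part this raised background had in the calls was not tested. Input tags at the exons themselves were not examined, and replicate 2 was not called against IgG.

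**Figure D2:**
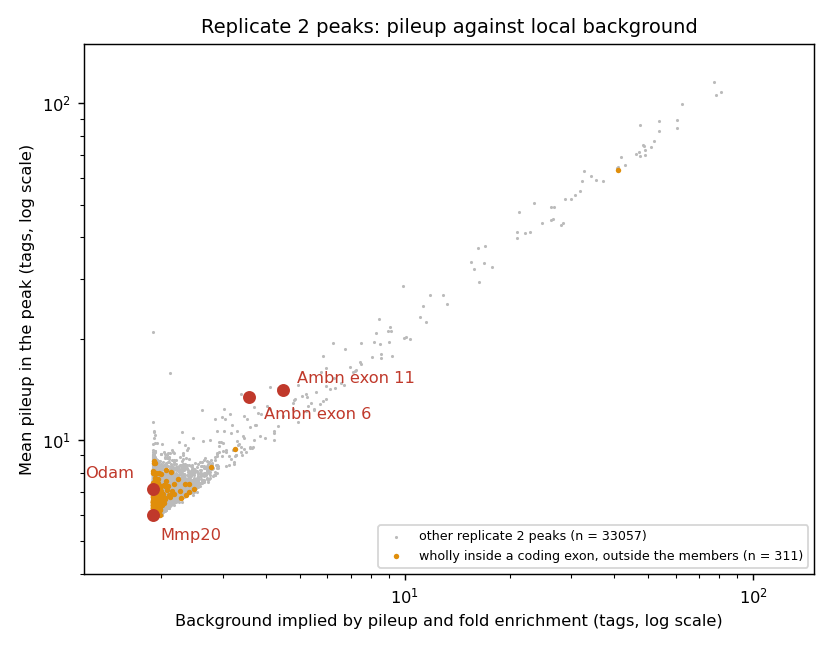
Mean pileup against implied background, both in tags on log axes, for the 33370 peaks of replicate 2, with member peaks in red and other peaks wholly inside a coding exon in orange. The Ambn peaks, at 13.4 and 14.1 tags, lie to the right of and above the main cloud, while the Odam and Mmp20 peaks lie at its left edge with a background of 1.90 tags.

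Coding exons spanned 36.2 Mb in all, and the share of peaks expected inside them from this length was not computed. Peaks wholly inside a coding exon were counted in each list. They made up 1.14% of replicate 1 peaks against input (260 of 22757), 1.37% against IgG (340 of 24881) and 0.938% of replicate 2 peaks (313 of 33370, 95% Wilson interval 0.840% to 1.05%). The following selections were made after the Ambn values were seen and carry no test. Of the 104 replicate 2 peaks with a pileup at least that of the exon 6 peak, 3 lay in coding exons, which were both Ambn peaks and 1 in the predicted gene Gm10717, where the pileup was 63.3 tags over a background of 40.9. Of the 110 peaks with a −log10 p at least that of the exon 11 peak, 3 lay in coding exons, namely both Ambn peaks and 1 in Plekhd1. Of 299 genes with any peak inside a coding exon in replicate 2, 15 had 2 or more, and Ambn was 1 of them. Fam83h, another gene required for enamel, was also among the 15, and its locus had 0 peaks of replicate 1 when called on input, 5 when called on IgG, and 5 of replicate 2. A pattern of 2 or more peaks in replicate 2 with none in replicate 1 was shared by 932 genes, or 4.25%.

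The other members with long exons did not show this. Enam exon 10 is 4591 bp long and Mmp20 exon 10 is 1917 bp long, both longer than Ambn exon 11, and neither held a peak in any list. The longest exon of Klk4 (571 bp), of Amelx (438 bp), of Amtn (300 bp) and of Odam (231 bp) likewise held 0 peaks in the 3 lists.

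Odam, which codes for the odontogenic ameloblast-associated protein, lies on the plus strand of chr5:87885029-87894174. It had 0 peaks in replicate 1 with either control and 1 in replicate 2. That peak was 71 bp long, about the length of 1 sequenced tag of that library (74 bp), and ended 1012 bp before the 5′ end of the gene. Its pileup of 7.17 tags, fold enrichment of 2.82 and −log10 p of 3.24 placed it 1804 by p-value. It covered 0.371% of the Odam locus, and the mean of the replicates was 0.185% ± 0.262 (SD, n = 2).

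Mmp20, the metalloproteinase of the secretory stage, lies on the plus strand of chr9:7628231-7674979 and has the longest locus of the members, 56.7 kb. Its peak counts were 0 with either control of replicate 1 and 1 in replicate 2. The single peak lay in intron 6, 23158 bp from the 5′ end, at the lowest pileup of the list (6.00 tags), with a fold enrichment of 2.41 and a −log10 p of 2.46. It ranked 24034 by p-value, in the weaker part of the list. The covered share was 0.293% in replicate 2, and the mean over the replicates was 0.146% ± 0.207 (SD, n = 2).

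Enam (plus strand, chr5:88487975-88506049), Amtn (plus strand, chr5:88376108-88385916), Amelx (minus strand, chrX:169176114-169187200) and Klk4 (plus strand, chr7:43881160-43885804) had 0 peaks in each of the 3 lists. Their covered share was 0% in each replicate. Absence from all lists was the commonest pattern in the genome, found in 11197 genes (51.0%). The pattern of Ambn, Odam and Mmp20, a peak in replicate 2 alone, was found in 3639 genes (16.6%).

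The distance from each gene's 5′ end to the nearest peak also differed between replicates. Against input, the members' median distance was 152 kb in replicate 1 and 7.88 kb in replicate 2, and the medians of all genes were 55.4 kb and 31.4 kb. Against IgG it was 166 kb, compared with 53.4 kb. Ambn, Amtn and Enam shared 1 nearest replicate 1 peak in both pairings, a 46-bp peak on chromosome 5 with no protein-coding gene within 5 kb, at 246 kb, 166 kb and 278 kb. Because neighbouring members shared peaks, these distances are not independent of each other. In replicate 2 the nearest peak to Ambn was its own exon 6 peak at 7.30 kb, which was also the nearest to Amtn at 87.2 kb. For Enam a peak at the minimum pileup of 6.00 tags lay 7.31 kb upstream, outside the 5 kb flank.

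Amelx lies within Arhgap6, a gene for a GTPase-activating protein on the opposite strand (chrX:168795099-169304435). Arhgap6 had 1 peak of replicate 1 when called on input, 2 when called on IgG, and 6 of replicate 2, none of them in the Amelx locus. The nearest to Amelx in replicate 2 lay 7.88 kb upstream of its 5′ end with a pileup of 7.21 tags, and the nearest in replicate 1 against input lay 152 kb downstream. Peaks were fewer on the X chromosome as a whole, where 11.6%, 11.8% and 20.3% of genes had one in replicate 1 against input, replicate 1 against IgG and replicate 2, compared with 25.9%, 26.8% and 36.8% of autosomal genes. The sex of the mice was not given in the labels.

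Klk4 and Odam were the members with the nearest replicate 1 peaks. A 46-bp peak with a pileup of 3.80 tags against input lay 18.7 kb upstream of Klk4, and the same interval was called against IgG with a pileup of 3.92 tags. In replicate 2 the nearest peak to Klk4 was 74.3 kb away, within 5 kb of Klk1b8, another kallikrein gene. For Odam the nearest replicate 1 peak was 33.0 kb away against IgG and 121 kb away against input. The nearest replicate 1 peak to Mmp20 was at 123 kb against input and at 325 kb against IgG, the latter within 5 kb of Yap1.

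**Figure D3:**
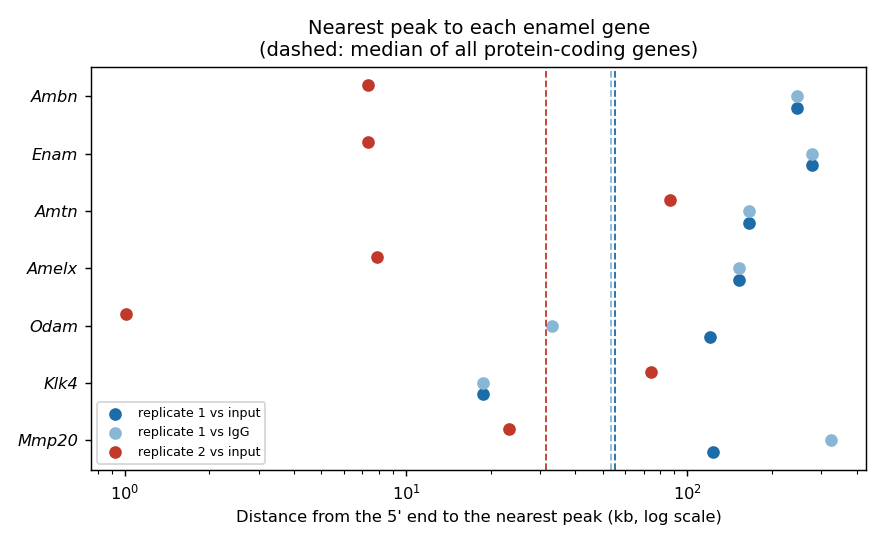
Distance in kb, on a log axis, from the 5′ end of each gene to the nearest peak of each list, with dashed lines at the medians of all protein-coding genes. Replicate 2 points (red) lie left of the replicate 1 points at every gene but Klk4, whose nearest replicate 1 peak was at 18.7 kb and nearest replicate 2 peak at 74.3 kb.

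The stretch of chromosome 5 from the Odam to the Enam locus, 631 kb with 4 members, held 2 peaks of replicate 1 when called on input, 3 when called on IgG, and 9 of replicate 2. These were 3.17, 4.75 and 14.3 peaks per Mb, and the exact 95% Poisson intervals were 0.384 to 11.4, 0.980 to 13.9 and 6.52 to 27.1. The rates over all gene loci fell within each of these intervals. A list of genes of the same cluster, such as those of the caseins, is called milk and saliva genes here. Not all of them belong to the family, Jchain for example. Of the 11 matched genes, 0, 0 and 3 had a peak in replicate 1 against input, replicate 1 against IgG and replicate 2. In both replicates it was 0 of 11. The kallikrein genes around Klk4 gave 2, 1 and 4 of 25 and 0 in both replicates, and the matrix metalloproteinase genes around Mmp20 gave 0, 0 and 2 of 8 and 0 in both. As among the members, no gene of these lists had a peak in both replicates, compared with 15.7% of all genes. The 95% Wilson intervals of these zeros reached 25.9% for the milk and saliva genes, 13.3% for the kallikreins and 32.4% for the metalloproteinases. Of these, the kallikrein interval alone ended below the 15.7% of all genes. The median kallikrein locus was 14.7 kb, compared with 27.4 kb for all genes, and a shorter locus has less room for a peak. Neighbouring kallikrein loci also overlapped in their flanks, whereas the interval takes the 25 genes as independent. The shares of all genes in the 3 lists were 25.0%, 25.9% and 35.7%.

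Among genes of enamel formation outside the matrix, a larger share than of the members had a peak in each list. The difference was small for transcription factors in replicate 2, and the lists differed from the members in locus length. Of 20 genes that act in amelogenesis outside the matrix itself, such as ion transporters, adhesion proteins and membrane traffic proteins, 8 had a peak in replicate 1 against input (40%, compared with 25.0% of all genes), 11 against IgG, 12 in replicate 2 (60%, compared with 35.7%) and 5 in both replicates. Their median locus was 68.1 kb, compared with 21.1 kb for the members and 27.4 kb for all genes, and a longer locus has more room for a peak. For the 5 of 20 with a peak in both replicates, the 95% Wilson interval was 11.2% to 46.9%. It included the 15.7% of all genes. Of these 5, ranked by covered share, the first was Slc24a4, a potassium-dependent sodium-calcium exchanger, with a mean of 0.473% ± 0.450 (SD, n = 2) of its locus covered, then Wdr72 with 0.345% ± 0.0425 and Lama3, a laminin chain, with 0.265% ± 0.330. Transcription factors of ameloblasts gave 6, 6 and 5 of 11 and 4 in both replicates, and among these 4 were Tbx1 with 0.744% ± 0.126 and Runx1 with 0.266% ± 0.00512. The median locus of these factors was 28.9 kb. Their share in replicate 2 was 45.5%, near the 42.9% of the members. The members' 95% Wilson interval in replicate 2, 15.8% to 75.0%, included this share and the 60% given above. For the 4 of 11 factors with a peak in both replicates, the interval was 15.2% to 64.6%. It also included the 15.7% of all genes.

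Genes of the mesenchymal side and of epithelium in general were also compared. Among 10 dentin and bone matrix genes, 3 had a peak in each of the lists and 2 in both replicates, Col1a2 (0.504% ± 0.280 covered, SD, n = 2) and Phex (0.117% ± 0.133). Among 16 epithelial keratin genes, which like the members are used by epithelial cells, 5 had a peak in replicate 1 against input, 7 against IgG, 2 in replicate 2 and 0 in both. The shares of all genes were 25.0%, 25.9% and 35.7% in the 3 lists and 15.7% in both replicates. All 39 Hox genes had a peak in each of the 3 lists. Their median covered share was 11.7%, 14.7% and 9.88% in the order of the lists above, and Hoxb2 led with 21.1% ± 2.13 (SD, n = 2). The best covered member, Ambn, reached 2.21% in replicate 2 and 0% in replicate 1.

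**Figure D4:**
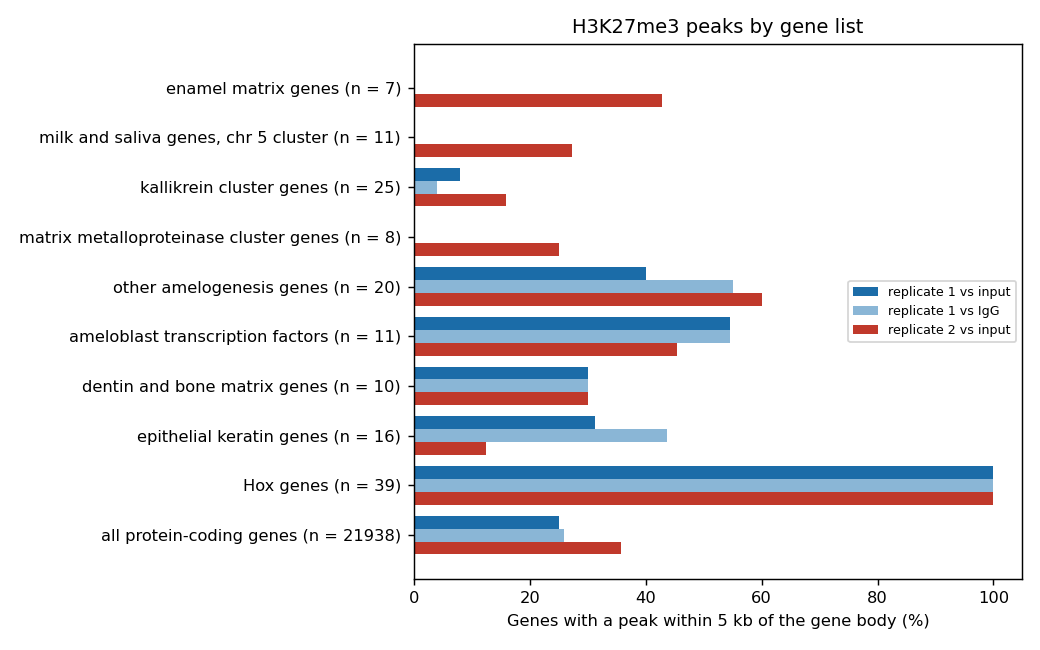
Share of genes, in percent, with a peak within 5 kb of the gene body in each of the 3 lists, for the enamel matrix genes, 8 comparison lists and all protein-coding genes. The enamel matrix genes show 0% in both replicate 1 pairings and 42.9% in replicate 2, and the Hox genes show 100% throughout.

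The promoters of the members were poor in CpG. All 7 matched an entry in a table of 300-base RefSeq promoters (GRCm38.p6, 250 bases before to 50 after the start), which held 16522 genes in all. The members had 0 to 3 CpG each, Enam and Mmp20 0, Ambn and Odam 1, and Amtn, Amelx and Klk4 3, with a median of 1 compared with 14 over all promoters. Promoters with 3 or fewer CpG made up 23.4% of all. The ratio of observed to expected CpG was 0.292 for Amtn, 0.255 for Amelx, 0.116 for Klk4, 0.0887 for Odam, 0.0769 for Ambn and 0 for Enam and Mmp20, and the median over all promoters was 0.598. The median ratio was 0 for 9 milk and saliva genes, 0.0882 for 25 kallikrein genes and 0.0862 for 8 metalloproteinase genes, each near that of the members (0.0887). It was 0.610 for 14 of the other amelogenesis genes, 0.759 for 6 ameloblast transcription factors and 0.594 for 22 Hox genes. The 8 dentin and bone matrix genes (0.292) and 8 epithelial keratin genes (0.244) in the table were also below the median of all promoters. In replicate 1 against input, 3 of 10 and 5 of 16 genes of these lists had a peak, compared with 25.0% of all genes. In replicate 2 the counts were 3 of 10 and 2 of 16, compared with 35.7%. These peaks were counted over the gene and its flanks, not at the promoter alone.

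**Figure D5:**
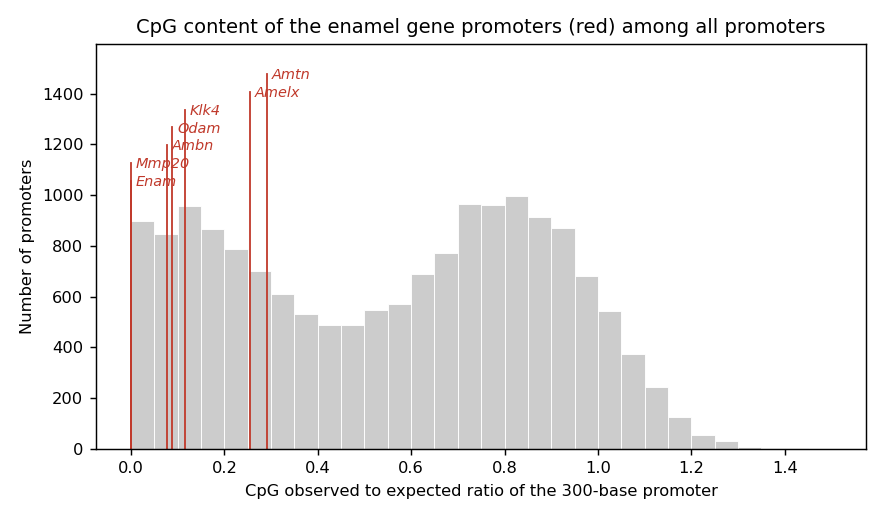
Histogram of the observed to expected CpG ratio of 16522 promoters of 300 bases (x axis, ratio; y axis, number of promoters), with the 7 members as red lines whose height has no meaning. All members lie between 0 and 0.292, left of the median of 0.598.

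The 250 bases before the start of Ambn (chr5:88455741-88455990, plus strand) and of Amelx (chrX:169187210-169187459, minus strand) are shown as examples of these promoters, one for the gene with the strongest peaks and one for the principal enamel protein, with each CpG in capitals.
Ambn: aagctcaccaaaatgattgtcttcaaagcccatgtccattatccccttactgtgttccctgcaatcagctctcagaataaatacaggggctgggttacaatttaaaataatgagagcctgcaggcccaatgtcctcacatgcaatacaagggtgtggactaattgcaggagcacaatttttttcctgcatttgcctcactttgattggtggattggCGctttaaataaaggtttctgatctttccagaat
Amelx: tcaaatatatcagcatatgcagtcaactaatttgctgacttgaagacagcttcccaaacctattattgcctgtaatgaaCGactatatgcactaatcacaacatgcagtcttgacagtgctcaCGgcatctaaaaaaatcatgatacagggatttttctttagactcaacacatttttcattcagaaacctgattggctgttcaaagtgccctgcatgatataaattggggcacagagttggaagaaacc
No peak of any list lay within 1 kb of the GENCODE 5′ end of a member, the nearest being the Odam peak at 1012 bp. From the RefSeq start of Odam the same peak was 993 bp away, so that it fell within 1 kb by that annotation.

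The promoters were also searched for short motifs on both strands. The letters CCAAT were present in 5 of 7 members and in 38.7% of all promoters, and TATAAA in 3 of 7 (Enam, Amelx and Mmp20) and in 12.9%. The longer stretch TGATTGG, which contains CCAAT on the other strand and was chosen after the sequences had been seen, was present in Ambn, Enam, Amtn, Amelx and Odam and in 9.41% of all promoters. In all 5 it read on the strand of the gene and began 49 to 72 bases before the start. The stretch was on the gene's strand in 4.69% of all promoters, and in 1.12% it also began in that window. The letters, the strand and the window were all read from these genes, so none of these shares, 9.41% included, serves as a comparison. It stands in capitals with 20 bases on each side, in the order Ambn (chr5:88455922-88455968, plus), Enam (chr5:88487883-88487929, plus), Amtn (chr5:88376020-88376066, plus), Amelx (chrX:169187243-169187289, minus) and Odam (chr5:87884926-87884972, plus).
Ambn: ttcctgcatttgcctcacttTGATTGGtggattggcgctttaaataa
Enam: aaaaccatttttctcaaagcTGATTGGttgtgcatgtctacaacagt
Amtn: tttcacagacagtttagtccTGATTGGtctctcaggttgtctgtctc
Amelx: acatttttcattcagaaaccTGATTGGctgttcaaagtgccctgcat
Odam: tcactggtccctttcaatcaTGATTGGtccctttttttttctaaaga
The stretch began 49 bases before the start in Ambn, 60 in Amelx, 64 in Odam, 68 in Amtn and 72 in Enam. The members with it are Amelx and the 4 SCPP genes of chromosome 5, and the proteases Klk4 and Mmp20 lacked it in this window. It was absent from the promoters of 9 milk and saliva genes of the same cluster and from those of 25 kallikrein, 14 other amelogenesis and 8 keratin genes. It was present in 4 of 8 dentin and bone matrix genes, 2 of 8 metalloproteinase genes of the cluster around Mmp20, 1 of 6 ameloblast transcription factors and 2 of 22 Hox genes. These lists are small, and whether their counts differ from the share of all promoters was not tested. A match of letters is a description and does not show that a factor binds.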

How the data were processed

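H3K27me3, input and IgG ChIP-seq libraries of molar mesenchyme (5 in all) were grouped by the labels. Per the study's methods and the labels, the authors aligned reads to GRCm38 with BWA, sorted them with SAMtools and called broad peaks with MACS 2.1.1 at a p cutoff of 0.005, keeping 1 tag per position and scaling the larger library of each pair to the smaller. Replicates were not pooled. Pileup, as deposited, is a signal that averages the overlapping tags over a peak. Fold enrichment, as deposited, is a ratio, pileup over control background after adding 1 to each. P-values were deposited as −log10 p. According to the file headers, the tags of replicate 1 measured 49 bp and those of replicate 2 74 bp, with modelled fragments of 46 and 71 bp, so peak lengths and pileups are not comparable between replicates.

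Peaks were overlapped (1 base or more) with GENCODE M21 protein-coding loci using Python 3.11.15, numpy 2.4.6 and scipy 1.17.1, after a check on simulated peaks. Mitochondrial peaks were left out. No test was run, since the values are peak calls from 2 libraries. Intervals are Wilson or exact Poisson at 95%. Sequences came from RefSeq GRCm38.p6. Fdcsp, Muc10 and Mmp1a of the comparison lists had no match. The members and lists were chosen with earlier results of these data known. Named genes were all members, up to 3 genes of each list with a peak in both replicates and the highest mean covered share, genes at the nearest peaks and a gene overlapping a member. The values of 1 gene that the rule names are not reported here. Gm10717, Plekhd1 and Fam83h were named after their values were seen. Alternatives were stricter peak thresholds, other flanks, promoters alone, at least 50% of the peak inside the locus, IgG as control, replicate 2 reduced to 22757 peaks by lowest p, and each replicate left out.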

Additional observations from a re-analysis of the deposited data

How the results depend on the processing

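The count of members with a peak in both replicates stayed at 0 when the threshold, flank, overlap or control was changed 1 at a time. Only the wider flanks and the IgG control could have raised this count, since the other changes can only remove peaks. With 50 kb and IgG together, an alternative chosen after seeing the data, the count became 1 (Odam). Replicate 1 then had 2 members (Odam and Klk4) and 3 peaks. Leaving out 1 replicate gave 0 to 3, the 3 being the members of replicate 2 alone. In replicate 1 against input, the 0 members and 0 peaks became 1 and 1 with a flank of 20 kb and again with 50 kb, through Klk4. In replicate 2, the 3 members and 4 peaks became 1 and 1 when peaks under 3-fold enrichment were dropped (the Ambn exon 6 peak remained), 5 and 7 with 20 kb, 5 and 10 with 50 kb, and 0 and 0 with the promoter alone (1 kb on each side of the GENCODE 5′ end). Taken from the RefSeq start, also an alternative chosen after seeing the data, the promoter gave 1 member and 1 peak in replicate 2 (Odam) and 0 in replicate 1. A −log10 p of 3 or higher removed the Mmp20 peak, and leaving out the flank removed the Odam peak. The covered share of the member loci ranged from 0% to 0.296% under these settings and from 0% to 0.404% with 1 replicate left out. Over the comparison lists without the Hox genes, 11 of 101 genes with a peak in both replicates became 0 at a fold enrichment of 3, 1 at a −log10 p of 3, 26 with 20 kb, 47 with 50 kb, 0 with the promoter alone, and 24 to 31 with 1 replicate left out. The fold threshold kept 2040 replicate 1 peaks and 522 replicate 2 peaks, the p threshold 744 and 3678. No paired analysis was possible because the values are peak calls with no test between groups. Depth limits what the lists show, since signal below the calling threshold is not listed and replicate 1 was the shallower library.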
